A study of Homo sapiens with 15 samples.

Results

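The mitochondrial genome of HEK293T T-REx cells, a human embryonic kidney line built to carry a transgene under tetracycline control, was examined through its PAR-CLIP clusters. In PAR-CLIP, cells take up a photoreactive nucleoside, light crosslinks RNA to the proteins that touch it, a protein is pulled down, and the short RNA stretches that stay with it are sequenced. A cluster is a genomic stretch on 1 strand that such reads cover. All clusters on chromosome M were taken from 4 libraries, which gave 1401 clusters of 2107438 in all. PHC1 replicates 1 and 2 held 46 mitochondrial clusters of 696186 and 1152 of 698056. The RNAPII libraries held 190 of 667937 with 4-thiouridine (4SU) and 13 of 45259 with 6-thioguanosine (6SG).

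The PHC1 libraries came from cells with a PHC1 transgene, grown with hygromycin and labelled with 4SU, and the pulldown used streptavidin beads. PHC1 is a subunit of the Polycomb repressive complex PRC1, a nuclear repressor of genes. The RNAPII libraries came from cells of the same line without a transgene and without hygromycin, labelled with 4SU in the first library and 6SG in the second, and their labels name an antibody to the C-terminal domain of RNA polymerase II, although the protocol text speaks of streptavidin beads for them as well. All 4 cultures had the nucleoside overnight at 100 uM, and the cells were crosslinked at 365 nm with 0.15 J/cm2 and lysed whole. The protein, the transgene, the drug and the pulldown reagent differ together between the groups, so their parts in a difference cannot be told apart. The labels do not say that the PHC1 replicates came from separate cultures, and each RNAPII library is the only one of its kind. No streptavidin pulldown stated to come from cells without the transgene was analysed here, so the level of RNA that beads alone would carry is not known.

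The human mitochondrial genome is a small circle that carries 2 rRNA genes, 22 tRNA genes and 13 protein genes of the respiratory chain, and 28 of these 37 genes read along the plus strand. It is transcribed inside the organelle by POLRMT, not by RNA polymerase II. Transcription of both strands starts in the noncoding control region and runs through most of the circle, and enzymes then cut out the tRNAs, which sit between the rRNAs and mRNAs like punctuation. RNA of the gene-poor strand is mostly antisense to genes and is known to be degraded quickly. For counting, ATP8 with ATP6 and ND4L with ND4 were each taken as 1 mRNA unit, because each pair shares an mRNA, which left 11 mRNA units and 35 units in all.

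Each deposited cluster carries a coverage, the mean read depth per base of that cluster. Where a cluster had a partner of exactly the same span on the opposite strand, both carried the same coverage, in 732 of 732 such pairs in PHC1 replicate 1, 584 of 584 in replicate 2, 364 of 364 in RNAPII 4SU and 9 of 9 in RNAPII 6SG. The RNAPII 4SU pairs include 8 on the mitochondrial genome. Coverage was therefore not split by strand, and a base that lies in clusters of both strands enters a sum over strands 2 times. The strand of a cluster and the stretch it spans are given per strand.

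PHC1 replicate 1 stood apart in how its clusters were cut. A plus-strand cluster at chrM:567-16177 (hg19) spanned 15611 bases at a coverage of 1225, and a minus-strand cluster at chrM:722-16177 spanned 15456 bases at 1234. They held 49.9% and 49.8% of the mitochondrial coverage of that library and ranked 4th and 5th by summed coverage of all its clusters. The other 44 clusters lay in the control region. Replicate 1 therefore gives the total and the edges of the covered stretch, but its value for any single gene is the mean of the whole stretch. The 1152 clusters of PHC1 replicate 2, of which 58 lay in the control region, had a median length of 15 bases and a longest of 105. The median was 36 bases in RNAPII 4SU and 48 bases in RNAPII 6SG. Among nuclear clusters the median was 33 and 38 bases in the PHC1 replicates and 34 and 39 bases in RNAPII 4SU and 6SG. Merging into long clusters was not limited to the mitochondrial genome. PHC1 replicate 1 held 147 clusters over 1 kb, 2 of them mitochondrial, against 5 in replicate 2, 0 in RNAPII 4SU and 5 in RNAPII 6SG.

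Mitochondrial RNA took a larger share of the cluster coverage in both PHC1 libraries than in either RNAPII library. It made up 3.38% and 2.58% of the summed coverage of the PHC1 replicates, a mean of 2.98% ± 0.561 (SD, n = 2), against 0.302% in RNAPII 4SU and 0.285% in RNAPII 6SG, a mean of 0.294%. The groups did not overlap, and the ratio of the means was 10.1. With each base counted 1 time, strands merged, the shares were 1.83% and 1.71% in PHC1 and 0.259% and 0.275% in RNAPII, a ratio of 6.64. An exact permutation test over the 4 libraries gave a 2-sided p of 0.333 on either scale, the smallest that 2 libraries against 2 allow, so the design cannot place this difference past a threshold of 0.05.

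The difference was one of depth more than of spread. The mitochondrial share of all covered bases was 0.108% and 0.0792% in the PHC1 replicates and 0.0432% and 0.0391% in RNAPII 4SU and 6SG, a ratio of means of 2.28. Mean coverage per covered base was 1204 and 956 on the mitochondrial genome and 37.4 and 28.6 on nuclear chromosomes in the PHC1 replicates. In RNAPII 4SU and 6SG it was 317 and 455 on the mitochondrial genome and 45.2 and 62.2 on nuclear chromosomes. Mitochondrial bases were thus covered 32.2 and 33.4 times as deeply as nuclear ones in PHC1, and 7.02 and 7.31 times in RNAPII. The PHC1 replicates, whose clusters were cut so differently, gave nearly the same ratio of means, and so did the RNAPII libraries made with different nucleosides. By median coverage per cluster the ratio was 5.38 and 37.9 in PHC1 replicates 1 and 2. It was 16.0 and 13.1 in RNAPII 4SU and 6SG, so the groups overlapped on that measure.

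By number of clusters the groups overlapped. Mitochondrial clusters were 0.00661% and 0.165% of all clusters in the PHC1 replicates and 0.0284% and 0.0287% in RNAPII 4SU and 6SG, with the merged replicate 1 lowest. Dropping the 10 clusters with the most summed coverage from each library also ended the separation. The mitochondrial share then was 0.0105% in PHC1 replicate 1, which lost both of its long clusters, 2.68% in replicate 2, 0.315% in RNAPII 4SU and 0.319% in RNAPII 6SG. The coverage share of replicate 1 thus rests on 2 clusters, while that of replicate 2 does not rest on its deepest 10.

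**Figure D1:**
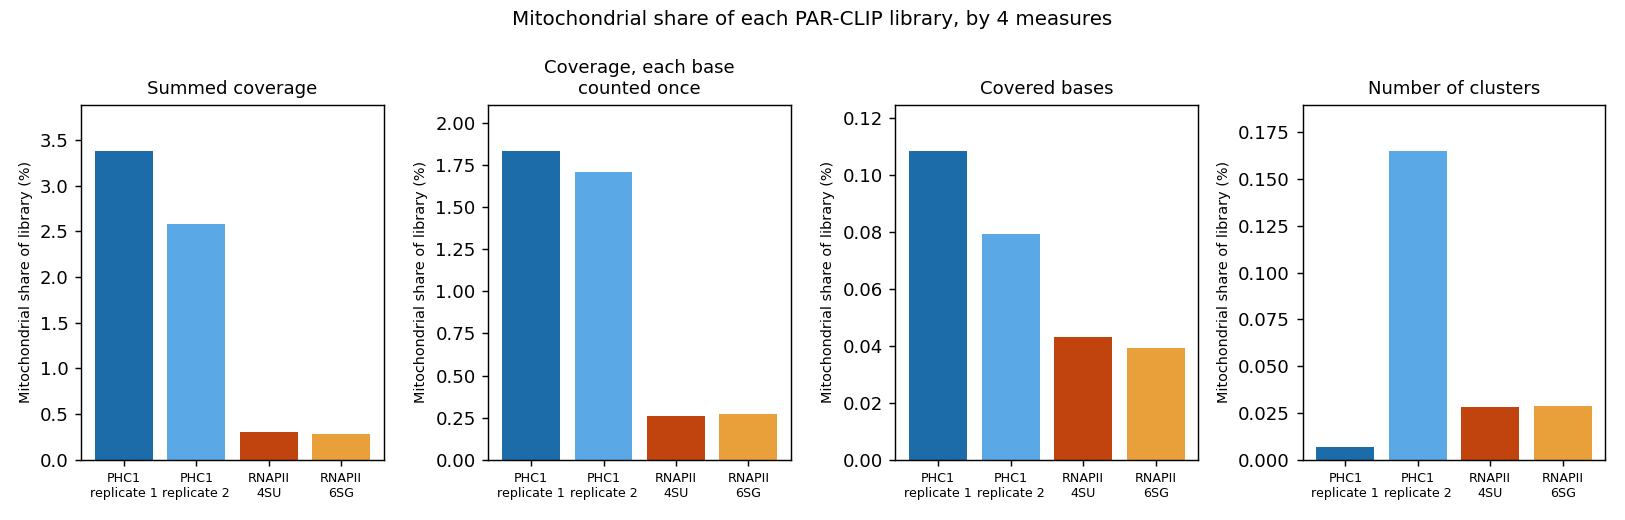
Mitochondrial share of each library in percent (vertical axes, from 0) for PHC1 replicates 1 and 2, RNAPII 4SU and RNAPII 6SG, by summed coverage, by coverage with each base counted 1 time, by covered bases and by number of clusters; each bar is 1 library. Both PHC1 bars stand above both RNAPII bars in the first 3 panels (3.38% and 2.58% against 0.302% and 0.285% for summed coverage), and PHC1 replicate 1 is the lowest in the last.

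Part of the signal of mitochondrial RNA can align elsewhere, because the nuclear genome holds copies of mitochondrial DNA. A stretch of chromosome 1, picked after its values were seen and containing clusters between chr1:564473 and chr1:570295, is such a copy. It held 42 and 181 clusters in the PHC1 replicates and 98 and 3 in RNAPII 4SU and 6SG. Its summed coverage equalled 6.81% and 11.6% of the mitochondrial coverage in PHC1, and 9.44% and 4.62% in RNAPII 4SU and 6SG. As a share of the library it was 0.230% and 0.299% in PHC1 and 0.0285% and 0.0132% in RNAPII, with both PHC1 libraries above both RNAPII libraries here as well. How the authors placed reads that match both is not given in the sources used here.

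Both strands of the mitochondrial genome were covered in every library, but with different balance. PHC1 replicates 1 and 2 had 15795 and 12576 plus-strand bases in clusters, against 15997 and 10492 minus-strand bases. RNAPII 4SU had 7148 plus-strand and 3637 minus-strand bases, and RNAPII 6SG had 446 and 253. The plus strand took 49.7% and 54.5% of covered bases in PHC1, and 66.3% and 63.8% in RNAPII 4SU and 6SG. By summed coverage it took 50.0% and 55.5% in PHC1, and 76.4% and 66.4% in RNAPII. The PHC1 libraries lay below the RNAPII libraries on both scales. The mean difference by coverage was -18.7 percentage points, with p = 0.333 in the exact permutation test, 2-sided, the smallest that 2 against 2 can give. In PHC1 replicate 1 the merged clusters take 100% of plus-strand and 99.1% of minus-strand gene bases. Its plus-strand share is thus near 50% by construction. With replicate 1 left out, the mean difference by coverage was -16.0 points. Replicate 2 covered 78.9% and 63.8% of those bases, and the part of such wide coverage in its share was not tested. Of the bases covered on either strand, 96.0% and 53.7% were covered on both strands in PHC1, and 27.9% and 5.11% in RNAPII 4SU and 6SG. Coverage is not split by strand, so these are shares of covered stretches, not of reads of a strand.

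The stretch that holds the genes was covered far more deeply than the control region, which carries the promoters and the origin of heavy-strand replication but no gene. With strands merged, the gene stretch had a coverage per base of 1229 in PHC1 replicate 1, 915 in replicate 2, 186 in RNAPII 4SU and 19.8 in RNAPII 6SG. The control region had 251, 84.1, 28.1 and 0 in the same libraries. The ratio of control region to genes was 0.204 and 0.0918 in the PHC1 replicates and 0.151 in RNAPII 4SU, so the groups overlapped in this ratio. Of gene bases, 100% and 92.1% lay in a cluster of either strand in the PHC1 replicates, 51.9% in RNAPII 4SU and 4.31% in RNAPII 6SG. Of control-region bases, the shares were 69.1% and 69.3% in PHC1, 37.2% in RNAPII 4SU and 0% in RNAPII 6SG.

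The left edge of the plus-strand coverage that reaches into the genes lay close to the start of TRNF, the tRNA that opens the gene stretch, in 3 libraries. That cluster started at chrM position 567 in PHC1 replicate 1, 576 in replicate 2 and 580 in RNAPII 4SU. On the minus strand the edges were farther apart, at 722, 743 and 1993. The PHC1 replicates, cut differently elsewhere, thus had nearly the same edges on both strands. In RNAPII 6SG the first clusters started at 5922 on the plus strand and 3198 on the minus strand.

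**Figure D2:**
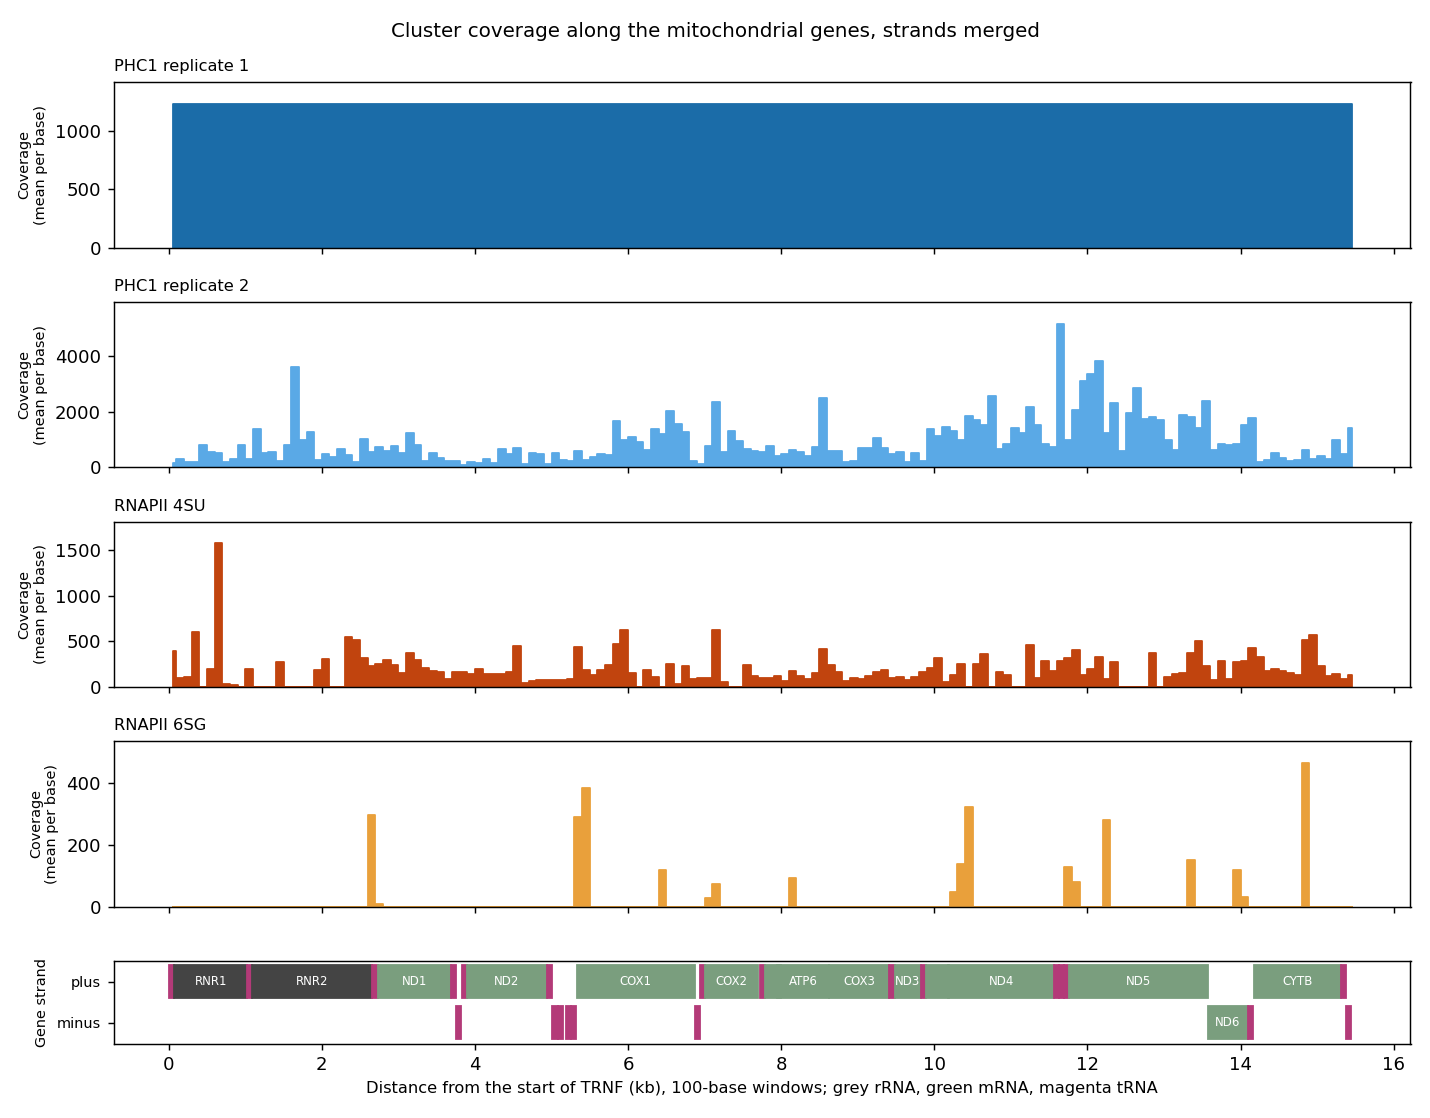
Mean coverage per base in 100-base windows (vertical axes, strands merged, each scaled to its own library from 0) against the distance in kb from the start of TRNF, for PHC1 replicates 1 and 2, RNAPII 4SU and RNAPII 6SG, with the genes by strand below. PHC1 replicate 1 is flat because 2 clusters span the stretch; PHC1 replicate 2 has no empty window of 155, RNAPII 4SU has 24 and RNAPII 6SG has 137.

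The 2 rRNAs, RNR1 of the small and RNR2 of the large mitochondrial ribosomal subunit, are read from the same strand beside each other. Coverage per base is not scaled to library depth, so levels are also given relative to the mean of each library's gene stretch, called the gene mean. With strands merged, RNR1 had a coverage per base of 405 in PHC1 replicate 2, against 291 in RNAPII 4SU and 0 in RNAPII 6SG. RNR2 had 832 in PHC1 replicate 2, against 148 and 7.71 in RNAPII 4SU and 6SG. RNR2 was thus the deeper of the pair in PHC1 replicate 2. RNR1 was the deeper in RNAPII 4SU only through 1 cluster, described below, with 177763 of its summed coverage of 277470. Over the mean of its library's gene stretch, RNR1 stood at 0.44 in PHC1 replicate 2 and at 1.56 in RNAPII 4SU. The level of RNR1 in RNAPII 4SU came largely from 1 cluster, at chrM:1173-1208 on the plus strand, with a coverage of 4938 and 5.19% of that library's mitochondrial coverage. PHC1 replicate 2 covered 91.7% of those 36 bases on the same strand at a mean of 896, which is 0.978 times its gene mean, against 26.5 times in RNAPII 4SU. RNAPII 6SG had no cluster there.

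In PHC1 replicate 2 and RNAPII 4SU the rRNAs were covered mostly in the sense direction, while RNAPII 6SG had no sense rRNA bases in clusters. In PHC1 replicate 2, clusters took 66.2% of sense and 22.5% of antisense rRNA bases, and in RNAPII 4SU they took 21.0% of sense and 2.87% of antisense rRNA bases. RNR1 had the lowest antisense share, with 7.65% of its antisense bases covered in PHC1 replicate 2 and 0% in RNAPII 4SU. For RNR2 the antisense shares were 31.6% in PHC1 replicate 2, against 4.62% and 2.05% in RNAPII 4SU and 6SG. TRNF and TRNV, the tRNAs before and between the rRNAs, had no antisense bases in clusters of PHC1 replicate 2, RNAPII 4SU or RNAPII 6SG. In PHC1 replicate 1, the merged minus-strand cluster starts within RNR1, so 92.2% of antisense RNR1 and all of antisense TRNV lie in it, and none of antisense TRNF does.

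The mRNAs encode subunits of complexes I, III, IV and V of the respiratory chain. All 11 units had sense clusters in PHC1 replicate 2 and RNAPII 4SU, and 5 had them in RNAPII 6SG. The share of sense mRNA bases in clusters was 84.1% in PHC1 replicate 2, 47.1% in RNAPII 4SU and 3.41% in RNAPII 6SG. Antisense, it was 72.3% in PHC1 replicate 2, 21.7% in RNAPII 4SU and 2.04% in RNAPII 6SG. In PHC1 replicate 2 the units differed little in this share, between 80.1% and 89.0% sense and between 65.6% and 81.4% antisense. In RNAPII 4SU they ranged between 14.9% and 82.1% sense and between 0% and 87.9% antisense.

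Depth along the mRNAs differed more than the covered share. Among the complex I units, coverage per base with strands merged was 577 for ND1, 364 for ND2, 426 for ND3, 1359 for ND4L/ND4, 1968 for ND5 and 960 for ND6 in PHC1 replicate 2. In RNAPII 4SU the same units had 227, 154, 98.5, 171, 178 and 224. ND5, the deepest mRNA of PHC1 replicate 2, stood at 2.15 times the gene mean there and at 0.96 times in RNAPII 4SU, and ND4L/ND4 stood at 1.48 and 0.91 times. RNAPII 6SG had 30.4 for ND4L/ND4, 35.3 for ND5, 28.6 for ND6 and 0 for ND1, ND2 and ND3.

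Among the complex IV mRNAs, COX1 had a coverage per base of 969 in PHC1 replicate 2, against 204 in RNAPII 4SU and 51.6 in RNAPII 6SG. COX2 had 1043 in PHC1 replicate 2, against 165 and 15.0, and COX3 had 575, against 145 and 0. ATP8/ATP6, of complex V, had 812 in PHC1 replicate 2, against 147 and 11.1. These 4 units lay between 0.63 and 1.14 times the gene mean in PHC1 replicate 2 and between 0.78 and 1.09 times in RNAPII 4SU. CYTB, the only complex III subunit of this genome, had 397 in PHC1 replicate 2, against 253 and 41.0 in RNAPII 4SU and 6SG. It stood at 0.43 times the gene mean in PHC1 replicate 2, at 1.35 times in RNAPII 4SU and at 2.07 times in RNAPII 6SG.

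**Figure D3:**
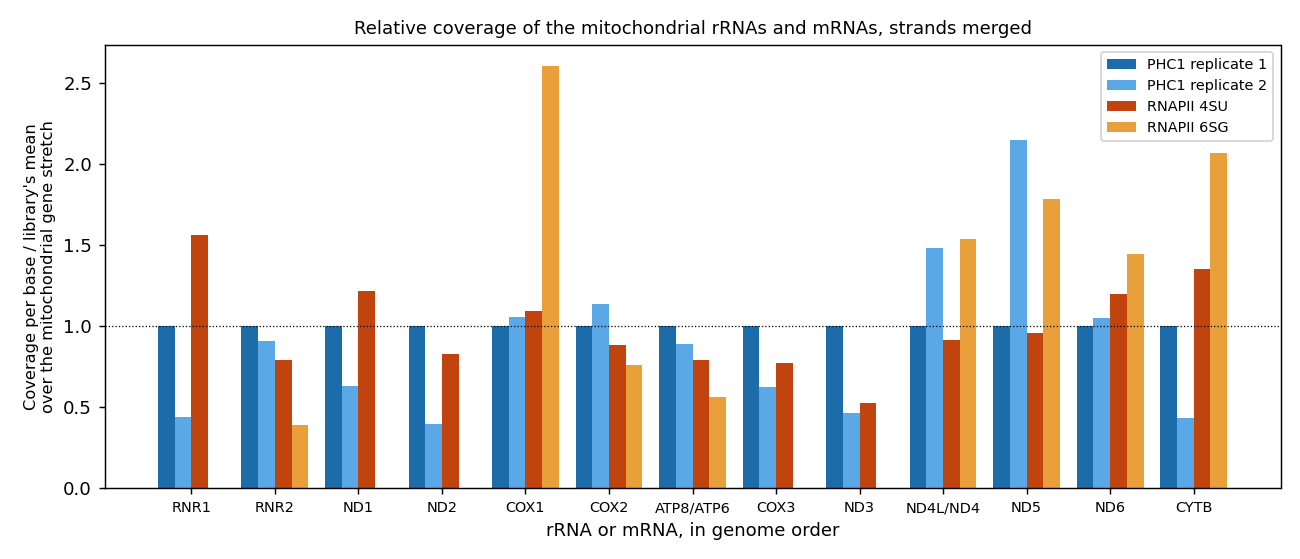
Coverage per base of the 2 rRNAs and 11 mRNA units, strands merged, divided by each library's mean over the mitochondrial gene stretch (vertical axis, from 0; dotted line at 1), with 1 bar each for PHC1 replicates 1 and 2, RNAPII 4SU and RNAPII 6SG; no bar means 0. PHC1 replicate 1 is at the line throughout because of its merged clusters, ND5 stands highest in PHC1 replicate 2 at 2.15, RNR1 in RNAPII 4SU at 1.56 and COX1 in RNAPII 6SG at 2.60.

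ND6 is the only mRNA read from the minus strand, and it lies opposite RNA of the plus strand. In PHC1 replicate 2, clusters took 88.6% of its sense bases and 76.4% of its antisense bases. In RNAPII 4SU they took 14.9% of sense and 36.0% of antisense bases, and in RNAPII 6SG 0% of sense and 11.2% of antisense bases. Both RNAPII libraries thus covered more of the antisense than of the sense strand of ND6, and PHC1 replicate 2 covered most of both.

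The 22 tRNA genes are short, so a single cluster can span several. Sense and antisense tRNA bases were covered to a like extent in RNAPII 4SU, 61.2% and 61.5%, and antisense more than sense in PHC1 replicate 2, 55.3% of sense and 76.3% of antisense bases. In PHC1 replicate 2, all 22 tRNAs had sense and 20 had antisense bases in clusters, and in RNAPII 4SU 19 had sense and 16 had antisense bases. In RNAPII 6SG no tRNA had sense bases in a cluster, and TRNL1 alone had antisense bases, in a cluster at chrM:3198-3278 on the minus strand that starts in RNR2.

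The deepest tRNA site in PHC1 replicate 2 was at TRNH and TRNS2, which lie next to each other between ND4 and ND5 and carry histidine and serine. A minus-strand cluster at chrM:12190-12246, antisense to TRNH and TRNS2, had a coverage of 6784 and was the largest mitochondrial cluster of that library by summed coverage. With strands merged, TRNS2 had 6723 per base in PHC1 replicate 2, or 7.34 times its gene mean, against 373 in RNAPII 4SU, or 2.00 times, and 0 in RNAPII 6SG. TRNH had 2336 in PHC1 replicate 2, against 179 and 0. RNAPII 4SU covered 24.6% of the bases of the PHC1 cluster on its own strand, and RNAPII 6SG covered none.

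TRNE, which carries glutamate, and TRNP, which carries proline, are read from the minus strand. Their antisense clusters, on the plus strand, were among the deepest tRNA features of PHC1 replicate 2. Antisense TRNE had a coverage per base of 2617 in PHC1 replicate 2, against 443 in RNAPII 4SU and 0 in RNAPII 6SG. Antisense TRNP had 1483 in PHC1 replicate 2, against 172 and 0. The sense strand of TRNE held few cluster bases, 8.70% in PHC1 replicate 2 and 2.90% in RNAPII 4SU, although strands merged it was covered at 2631 and 442. TRNT, named after its values were seen, lay at the other end, at 0.074 times the gene mean strands merged in PHC1 replicate 2 and 0.36 times in RNAPII 4SU.

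TRNF had a sense coverage per base of 166 in PHC1 replicate 2 and 389 in RNAPII 4SU, or 0.18 and 2.09 times the gene means of those libraries. TRNV had 273 in PHC1 replicate 2 and 257 in RNAPII 4SU, or 0.30 and 1.38 times the gene means. Relative to its own library, each was thus lower in PHC1 replicate 2. TRNL1, a leucine tRNA after RNR2, had sense coverage of 799 in PHC1 replicate 2 and 202 in RNAPII 4SU. TRNL2, the other leucine tRNA, had 481 in PHC1 replicate 2 and 301 in RNAPII 4SU. All 4 had 0 sense coverage in RNAPII 6SG.

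**Figure D4:**
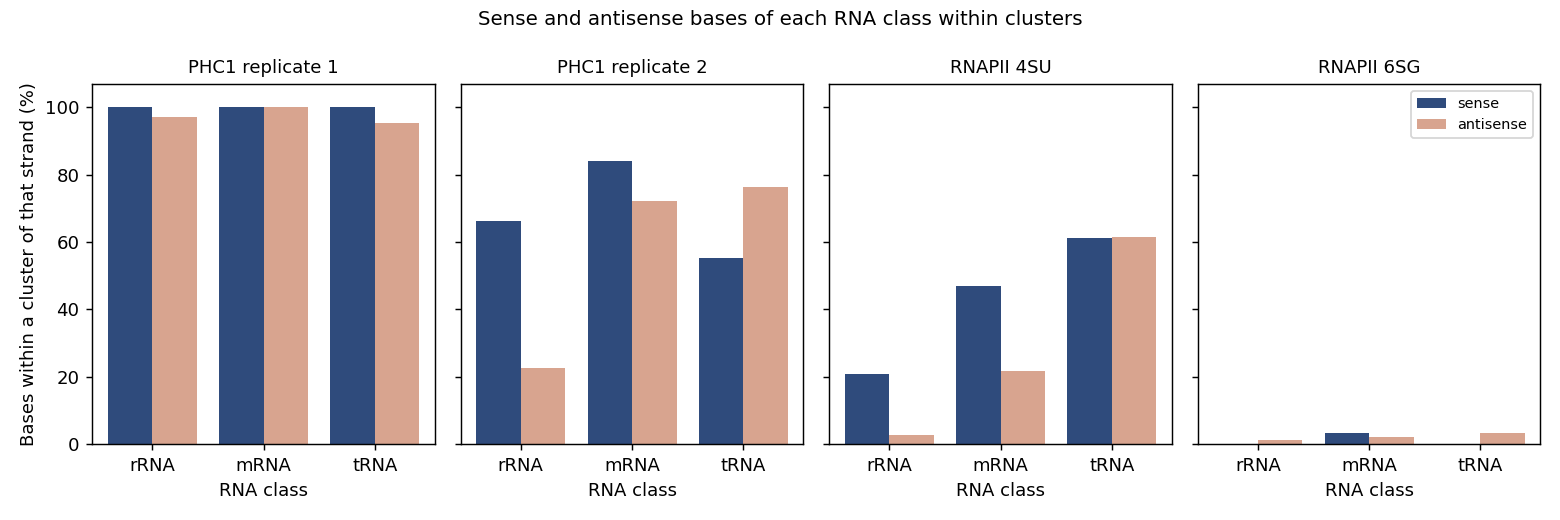
Share of the sense (dark) and antisense (light) bases of the rRNA, mRNA and tRNA genes that lie in a cluster of that strand, in percent (vertical axis, from 0), with 1 panel each for PHC1 replicates 1 and 2, RNAPII 4SU and RNAPII 6SG. Sense exceeds antisense for rRNA in PHC1 replicate 2 (66.2% and 22.5%) and RNAPII 4SU (21.0% and 2.87%), and antisense exceeds sense for tRNA in PHC1 replicate 2 (76.3% and 55.3%); the merged clusters of PHC1 replicate 1 fill nearly all bases.

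Split by class, the mitochondrial coverage differed less between groups than within them. The rRNA share was 15.9% and 9.49% in the PHC1 replicates and 14.8% and 3.78% in RNAPII 4SU and 6SG. The mRNA share was 72.8% and 82.5% in PHC1 and 73.5% and 90.4% in RNAPII. The tRNA share was 9.43% and 7.30% in PHC1 and 10.1% and 5.78% in RNAPII. The groups overlapped in all 3 shares of coverage, and the exact permutation test, 2-sided, gave p = 0.667 for rRNA, p = 0.667 for mRNA and p = 1 for tRNA. Of the bases of both strands, rRNA genes make up 15.2%, mRNA units 68.4% and tRNA genes 9.08%, which are also the shares that an even coverage would give. By covered bases the rRNA share did not overlap between groups, at 15.6% and 9.66% in PHC1 against 5.55% and 4.58% in RNAPII 4SU and 6SG (exact permutation p = 0.333, 2-sided, the smallest possible). The merged clusters of PHC1 replicate 1 fill nearly all bases, so its 15.6% stands near the 15.2% of even coverage by construction. Only the 9.66% of replicate 2 is thus free to differ on the PHC1 side. RNAPII 6SG, with 13 clusters, decides much of the result by coverage: without it the mean difference was -2.14 points for rRNA, 4.16 for mRNA and -1.74 for tRNA, against 3.39, -4.30 and 0.421 with it.

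The largest clusters of the libraries lay at different sites. After the tRNA site, PHC1 replicate 2 was led by a cluster at chrM:12675-12761 in ND5 with a coverage of 4134, and by a cluster at chrM:9059-9156 in ATP8/ATP6 with 2843, both on the plus strand. RNAPII 4SU covered 23.0% of the bases of the first at a mean of 243 over the span, and 80.6% of the second at 513. After its RNR1 cluster, RNAPII 4SU was led by chrM:15440-15516 in CYTB with 1318, and chrM:2999-3124 in RNR2 with 656, both on the plus strand. PHC1 replicate 2 covered 87.0% of the first of these at a mean of 808 and 88.1% of the second at 619.

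RNAPII 6SG had its largest cluster at chrM:5922-6049 in COX1, on the plus strand, with a coverage of 530 and 21.3% of its mitochondrial coverage. The second, at chrM:15440-15475 in CYTB on the plus strand, had 1298 and 14.7%, and started at the same base as the CYTB cluster of RNAPII 4SU. The coverage of the 2 RNAPII libraries over those 36 bases was close, 1298 with 6SG and 1318 with 4SU, although RNAPII 6SG had far fewer clusters in all. PHC1 replicate 2 had 1238 there, or 1.37 times its gene mean with strands merged, against 65.5 times in RNAPII 6SG and 7.06 times in RNAPII 4SU. The third cluster of RNAPII 6SG, antisense to ND4L/ND4 at chrM:11006-11048 with 754, had no counterpart in RNAPII 4SU, and PHC1 replicate 2 covered 25.6% of its bases. Of the 13 clusters, 9 were on the plus strand and 4 on the minus strand, and those that lay in or across genes touched RNR2, TRNL1, COX1, COX2, ATP8/ATP6, ND4L/ND4, ND5, ND6 and CYTB.

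Most RNAPII cluster bases also lay in PHC1 clusters, which covered most of the genome. Counted by strand, 81.3% of the mitochondrial bases of RNAPII 4SU were also in PHC1 replicate 2, and 38.0% of those of PHC1 replicate 2 were in RNAPII 4SU. Of RNAPII 6SG bases, 70.2% were in PHC1 replicate 2 and 39.1% in RNAPII 4SU. PHC1 replicate 2 itself covered 78.9% of plus-strand and 63.8% of minus-strand gene bases. On those strands it held 83.4% and 77.2% of RNAPII 4SU bases, and 80.9% and 51.4% of RNAPII 6SG bases. At least 1 base was shared with PHC1 replicate 2 by 189 of 190 RNAPII 4SU clusters and 13 of 13 RNAPII 6SG clusters. Such wide coverage makes a shared base likely, and overlap beyond it was not tested. The PHC1 replicates shared 99.0% of the bases of replicate 2 and 71.8% of those of replicate 1. PHC1 replicate 1 also held 99.6% of RNAPII 4SU bases and 100% of RNAPII 6SG bases. Its merged clusters fill nearly all bases, so the 99.0% is no measure of agreement between the replicates. Over the 35 units, the rank correlation of coverage per base (Spearman, strands merged) was 0.38 between PHC1 replicate 2 and RNAPII 4SU, 0.47 between PHC1 replicate 2 and RNAPII 6SG, and 0.24 between the RNAPII libraries. PHC1 replicate 1, whose units all take the level of the same 2 clusters, had 0.14 with PHC1 replicate 2, -0.19 with RNAPII 4SU and 0.059 with RNAPII 6SG. RNAPII 6SG was at 0 in most units, so its correlations mainly set its few covered units against units tied at 0. Neighbouring units share clusters, so all these values are a description.

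Set against the nuclear genes in 1 fit, mitochondrial features were higher in PHC1 without passing the threshold. The 72 features were the sense and antisense of each unit and the bases of each strand in no gene, and their summed coverage was scaled to per-million values (ppm) together with that of the nuclear gene regions. Of the 71 features above 0 in any library, both PHC1 libraries were above both RNAPII libraries in 65 and below both in 0. The same held for 35.1% of all 12112 features in the first direction and for 17% in the second. In PHC1 replicate 1 the sense and antisense features of the genes take the level of the merged clusters. The exceptions are antisense TRNF, at 0, and antisense RNR1, of which 92.2% lies in them. The bases in no gene also hold other clusters. Features share clusters, so the 65 are not 65 separate observations.

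COX2 had 1001 and 759 ppm in the PHC1 replicates, against 75.7 and 77.8 in RNAPII 4SU and 6SG, a log2 fold change of 3.49 ± 0.29 (SE, pseudocount of 1 ppm). ATP8/ATP6 had 1233 and 767 in PHC1, against 91.0 and 70.7, a log2 fold change of 3.58 ± 0.37. ND5 had 2653 and 3914 in PHC1, against 222 and 382, a log2 fold change of 3.46 ± 0.41. In these 3 mRNAs the lowest PHC1 value was several times the highest RNAPII value. COX1 had 2258 and 1607 in PHC1, against 218 and 602, a log2 fold change of 2.39 ± 0.59. CYTB had 1670 and 512 in PHC1, against 192 and 353, a log2 fold change of 1.82 ± 0.72. CYTB had the narrowest gap of these units, with both PHC1 values above both RNAPII values. The adjusted p from limma (Benjamini-Hochberg over 7262 features) was 0.163 for COX2, ATP8/ATP6 and ND5, 0.172 for COX1 and 0.240 for CYTB.

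No feature of the whole fit passed, mitochondrial or nuclear: limma called 0 of 7262 features (0% higher and 0% lower) at an adjusted p of 0.05. At an unadjusted p under 0.05 it placed 1047 features higher (14.4%) and 623 lower (8.58%), and 44 of 67 mitochondrial features higher and 0 lower. Mitochondrial features that met the filter through PHC1 alone, such as sense TRNA and antisense RNR1, could only come out higher. The 44 and 0 are therefore not read as a result. Over the mitochondrial features that entered the fit, 67 of 72, the median log2 fold change was 4.72, against 0.48 over the nuclear genes. That median gives a direction and no size, since 57 of the 67 were at 0 in RNAPII 6SG and their fold depends on the pseudocount, and since a feature covered in PHC1 alone could pass the filter. The 5 features that did not enter were sense TRNW, sense and antisense TRNT, and antisense TRNF and TRNV.

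Against RNAPII 4SU alone, the comparison with the same nucleoside, some features passed. This fit takes the single RNAPII 4SU library to vary as the PHC1 replicates do, and limma placed 33.8% of 6745 features higher and 27.5% lower in PHC1. The share of mitochondrial features called was no larger than that of all features. Their median log2 fold change was 3.34, against 0.07 for nuclear genes. Mitochondrial features under 5 ppm in RNAPII 4SU, such as sense TRNA and sense TRNE, met the filter through PHC1 alone and could only come out higher. Some of them are among those called, so neither the share called nor the median is read as a result. The called features were 6 of 11 sense and 5 of 11 antisense mRNA features, 1 of 2 sense and 0 of 2 antisense rRNA features, and 2 of 20 sense and 4 of 19 antisense tRNA features.

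Among those mRNAs, ND4L/ND4 had 2442 and 2543 ppm in PHC1, against 211 in RNAPII 4SU, a log2 fold change of 3.56. ND6 had 774 and 545 in PHC1, against 28.7, a log2 fold change of 4.45. COX1, COX2, ND5 and ATP8/ATP6 also passed, with log2 fold changes of 3.12, 3.51, 3.85 and 3.40. In the units that passed, the PHC1 replicates lay closer together than in those that did not. Replicate 1 has the same level per base in all units of a strand. The gap between the replicates of a unit is therefore how near replicate 2 lay to that level. In ND4L/ND4 the sense coverage per base was 1225 and 1236 in PHC1 replicates 1 and 2. Such a gap does not measure how a single gene varies between replicates. Which units passed is thus not read as a result, and p-values of this fit are not given. Antisense COX2, ND4L/ND4, ND5 and ND6 also passed, with log2 fold changes of 6.30, 6.60, 6.90 and 3.01. Antisense ND5 had a coverage per base of 1397 in PHC1 replicate 2, against 17.4 in RNAPII 4SU and 14.2 in RNAPII 6SG. RNR2 had 2282 and 1387 in PHC1, against 108 in RNAPII 4SU, and passed with a log2 fold change of 4.02. RNR1 had 1397 and 457 in PHC1, against 204, and did not pass, with a log2 fold change of 1.97. ND1, ND2, ND3, COX3 and CYTB did not pass, with log2 fold changes of 2.75, 2.79, 3.80, 3.36 and 2.26.

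Of the tRNAs, sense TRNS2 passed with 86.4 and 136 ppm in PHC1, against 16.2 in RNAPII 4SU, a log2 fold change of 2.67. Sense TRNL1 passed with 110 and 73.9 in PHC1, against 11.1, a log2 fold change of 2.91. Sense TRNF had 104 and 14.5 in PHC1, against 20.3 in RNAPII 4SU, so the groups overlapped. Antisense TRNL1 and TRNP also passed, with log2 fold changes of 3.08 and 3.54. Antisense TRNL1 had 111 and 74.3 ppm in PHC1, against 9.79 in RNAPII 4SU and 139 in RNAPII 6SG. There RNAPII 6SG lay above both PHC1 libraries, and the log2 fold change against both RNAPII libraries was 1.24 ± 1.38. Antisense TRNA, antisense TRNK and antisense ATP8/ATP6 are also among the features called. They met the filter through PHC1 alone, so their call and fold are not read as a result. Antisense TRNA had 101 and 45.2 ppm in PHC1, against 4.09 in RNAPII 4SU and 0 in RNAPII 6SG. Antisense TRNK and antisense ATP8/ATP6 were at 0 in both RNAPII libraries. Antisense TRNK had 103 and 49.0 ppm in PHC1, and antisense ATP8/ATP6 had 1242 and 673. Antisense TRNS2, the deepest tRNA feature, had 87.0 and 470 in PHC1 and 0 in both RNAPII libraries. Antisense TRNS2 did not pass against RNAPII 4SU, with the PHC1 replicates far apart.

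The nuclear genes whose products transcribe, process and modify mitochondrial RNA had a median fold change close to that of all nuclear genes. Of 39 such genes, among them POLRMT, TFAM and LRPPRC, 26 entered the main fit, 0 passed at an adjusted p of 0.05, and their median log2 fold change was 0.46, against 0.48 over the nuclear genes. The highest fold among those above 0 in all libraries was that of MRM1, a methyltransferase of mitochondrial rRNA, with 31.7 and 34.2 ppm in PHC1, against 8.89 and 9.13 in RNAPII, a log2 fold change of 1.76 ± 0.45 (limma adjusted p = 0.172). The lowest was that of HSD17B10, a subunit of mitochondrial RNase P, with 2.76 and 1.94 in PHC1, against 10.4 and 7.51, a log2 fold change of -1.57 ± 0.69 (limma adjusted p = 0.264). Both PHC1 values of HSD17B10 were under the filter of 5 ppm. It entered the fit through the RNAPII libraries alone and could only come out lower, so its fold is not read as a result. SLIRP, which stabilises mitochondrial mRNAs, had a log2 fold change of 1.99 but was at 0 in RNAPII 6SG. Against RNAPII 4SU alone, 7 of the 25 tested rose and 8 fell, against 33.8% and 27.5% of all features, and the median log2 fold change was -0.04.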

How the data were processed

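Per the submitters' processing notes, reads were handled on hg19 with Bowtie 0.12.7, SAMtools 0.1.19 and R 3.2.2 or 3.1.0; the cluster caller, its conversion filter and the handling of reads with several matches are not given in the sources used here. The deposited cluster lists hold a signal, the mean coverage per base of each cluster, without scaling to library depth; multiplied by cluster length it gave a whole number for all clusters (tolerance 1e-06). Read numbers are unknown, so no counting interval is given. Of the deposited gene tables, gene regions alone were used: they list 14432 genes and 0 mitochondrial ones.

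Mitochondrial genes came from RefSeq (GRCh38.p14), whose positions served only to assign cluster bases, which carry hg19 positions; shifts of 1 to 3 bases were tried. Coverage was summed over a feature's bases, scaled with TMM factors (0.738 and 0.950 for PHC1, 1.20 and 1.19 for RNAPII 4SU and 6SG), and compared with limma 3.58.1 in R 4.3.3 on log2 of the per-million value (ppm) plus 1, with trend and robust variance, for features at 5 or more ppm in at least 2 libraries. Nuclear clusters went to gene regions of the deposited table. The code was tested on simulated data. The design foresaw a count test if values were counts; they are not. Single shares were compared by exact permutation. Genes named were both rRNAs, all mRNA units, the 5 deepest tRNA and 5 deepest antisense features, any that passed, the 3 largest clusters of each library, and the largest fold each way of the nuclear list; a few other features were named after their values were seen. Members, lists and rules were chosen with earlier results of these data known. Since nothing states separate cultures, p-values reflect the variation among these 4 libraries, possibly technical variation. Unused columns of per-sample values number 0. Python 3.11.15, pandas 2.3.3, numpy 2.4.6 and bedtools 2.31.1 were also used.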

Additional observations from a re-analysis of the deposited data

How the results depend on the processing

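No paired analysis was possible because the PHC1 and RNAPII groups share fewer than 2 replicate numbers. The mitochondrial share and the plus-strand share of coverage kept their direction in every setting run; the difference in mitochondrial share lay between 2.29 and 3.08 percentage points with a library left out and at 1.03 without the 10 largest clusters. Without the largest mitochondrial cluster of each library the plus-strand difference was -38.0 points, against -18.7 with it, as PHC1 replicate 1 then loses its long plus-strand cluster and holds 0.0939%. The class differences by coverage turned in several settings. With a library left out they lay between -2.14 and 8.92 points for rRNA, -12.8 and 4.16 for mRNA, and -1.74 and 2.58 for tRNA; leaving out PHC1 replicate 1 turned mRNA to 0.529 and tRNA to -0.646. With the cluster midpoint deciding they were -2.32, 9.55 and -6.18, the tRNA shares then not overlapping between groups (exact permutation p = 0.333, the smallest possible), and for tRNA -3.15 by covered bases and -1.57 without the deepest mitochondrial cluster. The midpoint and the number of clusters give each long cluster of PHC1 replicate 1 to a single feature by construction. The median log2 fold change of the mitochondrial features (4.72) was 4.34 without TMM factors, which moved the nuclear median to -0.04, then 3.43 with a pseudocount of 5, 3.97 with strands merged (chosen after seeing the data), 1.12 by midpoint, 0.82 by number of clusters, and 3.34 to 5.71 with a library left out. The number of mitochondrial features called by limma (0) lay between 0 and 26 with a library left out, 18 without RNAPII 6SG (all higher) and 26 without RNAPII 4SU (25 higher, 1 lower), where limma placed 53.7% of all features higher and 21.6% lower. That of the nuclear list lay between 0 and 17 (12 higher, 5 lower, without RNAPII 4SU). Of the 67 mitochondrial features in the main fit, 57 were at 0 in RNAPII 6SG. In the fit without RNAPII 4SU such features could enter through PHC1 alone, and could then only come out higher. Neither the mitochondrial calls of that fit nor its median of 5.71 is therefore read as a result. By midpoint the fold turned for COX1 (-3.21), COX2 (-1.34), ND5 (-2.18), CYTB (-3.47), TRNL2 (-0.16), TRNF (-0.51), TRNV (-0.036) and antisense ND5 (-0.0075), and by number of clusters for COX1 (-1.54), COX2 (-0.63), ATP8/ATP6 (-0.52), ND5 (-1.72) and CYTB (-1.23). Count tests on the number of clusters were planned and not run, since no deposited value is a count. Depth in reads is unknown, and RNAPII 6SG, with 13 mitochondrial clusters, limits every comparison with both RNAPII libraries.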
